A study of Mus musculus with 14 samples.

Results

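The comparison described here is the difference between 2 genotype effects in mouse fibro-adipogenic progenitors (FAPs): the change from wild-type (WT) to SMA muscle after a glycerol injury, minus the same change after a BaCl2 injury. It uses all 14 libraries of the series, and every gene that could be tested after both injuries entered it, which were 13960 of the 14302 genes listed for both. SMA is read here as spinal muscular atrophy, and the labels name neither the allele nor the age of the mice. Day 3 after injury, FAPs were taken from the TA muscle by MACS (sorting with magnetic antibodies, here of unstated targets) and went into RNA extraction uncultured. The groups were SMA after BaCl2 (n = 3), WT after BaCl2 (n = 3), SMA after glycerol (n = 4) and WT after glycerol (n = 4). Depth after BaCl2 ranged from 97.7 M to 136.4 M counts per library (M, mega), and levels after BaCl2 are in CPM, the usual depth-scaled counts per M. The glycerol values were deposited as normalized counts, so their depth is unknown, and levels cannot be set side by side across the injuries. Each genotype effect was therefore formed within its own injury as a log2 fold change, SMA over WT. Because the injury is also the labelled batch, the effects of injury, batch and quantification cannot be told apart. Whether the libraries of a group are separate animals is not stated, and p-values here reflect the spread between these samples alone, which may be technical.

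FAPs are the stromal cells of skeletal muscle that support muscle stem cells after injury and that can also become fat cells or matrix-producing fibroblasts. Muscle regrows with little fat after BaCl2, a toxin of muscle fibres, whereas after glycerol FAPs also form fat between the new fibres. A few days after injury, FAPs divide and lie among incoming monocytes, macrophages and regrowing vessels. Spinal muscular atrophy is caused by too little survival motor neuron protein, a factor needed to assemble the splicing machinery.

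The libraries held the transcripts of FAPs together with those of other cells. After BaCl2 the FAP receptor gene Pdgfra ranged from 714 to 1015 CPM over the SMA libraries and from 822 to 940.2 CPM over the WT libraries, and its genotype effect differed between the injuries by -0.06 on the log2 scale (95% interval -0.36 to 0.24). Other FAP markers were lower in every SMA library after BaCl2, namely Ly6a (230.1 to 294.3 CPM against 327 to 437.2 CPM in WT) and Dcn (1557 to 1812 CPM against 1814 to 2081 CPM). For Cd34 the genotypes overlapped (151.1 to 189.7 CPM in SMA and 146 to 196.8 CPM in WT libraries). Pax7 of satellite cells (at most 0.124 CPM) and Sox10 of Schwann cells (at most 0.323 CPM) were near 0 after BaCl2 and were not listed after glycerol. Endothelial and macrophage markers were present in every library. In bulk samples, fewer cells of a type and less RNA per cell cannot be told apart. A few libraries stood apart from their group. SMA library 3 after BaCl2 lay at the WT level for interferon response genes, and SMA library 3 after glycerol lay among the WT libraries for the summed level of 26 macrophage markers. WT library 2 after BaCl2 had the lowest endothelial level of its injury, and WT library 1 after glycerol had the lowest interferon level of its injury.

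After glycerol the SMA effect was more positive for several MHC class II, interferon response and matrix genes, and more negative for many endothelial and some DNA replication and protein folding genes. Within one injury, 4.29% of 20119 genes passed after BaCl2 (2.73% higher and 1.56% lower in SMA) and 2.87% of 14330 after glycerol (1.7% higher and 1.17% lower). At an adjusted p under 0.05, the genotype effect differed between the injuries for 547 of 13960 genes (3.92%). It was more positive after glycerol for 273 (1.96%) and more negative for 274 (1.96%), and 3004 genes had an unadjusted p under 0.05. The difference reached 1 on the log2 scale, a ratio of folds of 2, for 142 of the 547 genes, 59 of them more positive and 83 more negative. Of the 547 genes, 246 (45.0%) had a negative effect after BaCl2 and a positive one after glycerol, against 24.1% of all 13960 genes, and 257 (47.0%) had the reverse, against 22.7% of all. Genes chosen for a large difference between 2 effects tend to have opposite signs by construction. The effects of 288 of the 547 genes (52.7%) passed after neither injury alone. The count ran from 173 without WT library 3 after glycerol to 1072 without SMA library 3 after BaCl2, and it was 226 to 303 without any 1 of SMA libraries 1 and 2 and WT library 2 after BaCl2, or SMA library 2 and WT library 1 after glycerol. It was 182 without WT library 3 after BaCl2, 949 without SMA library 3 after glycerol and 74 without SMA libraries 1 and 2 after BaCl2 together. One limma model over all 14 libraries, which gives the injuries a single estimate of the spread, called 53 genes, all of them among the 547.

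**Figure D1:**
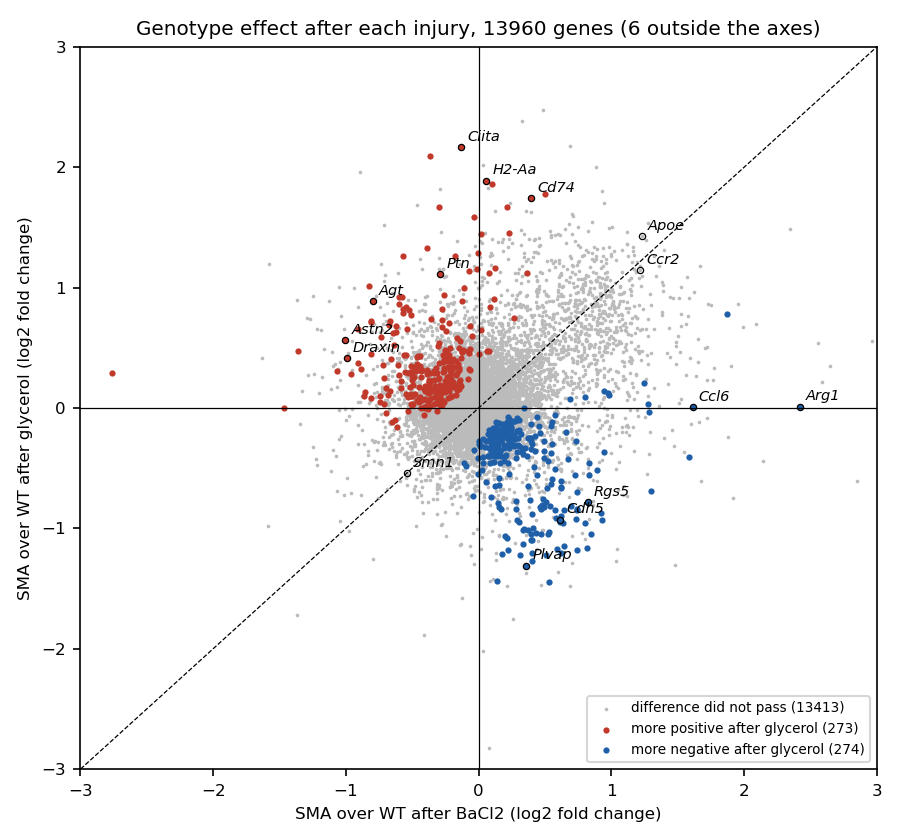
Each point is 1 gene, with its log2 fold change SMA over WT after BaCl2 on the x axis and after glycerol on the y axis; the dashed line marks equal effects, and 6 genes lie outside the axes. The 273 red and 274 blue genes, whose difference passed, lie mostly in the upper left and the lower right, where the effects have opposite signs.

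Of the genes that the text names, 90 passed the difference test. Among these, 35 passed whichever single library was left out, and all 90 kept the sign of the difference under every alternative run. The 90 were chosen for passing in these same libraries, which the alternatives reuse, so a kept sign is no independent support. The joint limma model passed 15 of the 90: H2-Aa, Astn2, Ptn, Rgs5, Agt, Ecm1, Lpl, Mylip, Irf1, Timp2, Plvap, Des, Cdc6, Dnajc3 and Dusp1. Without SMA libraries 1 and 2 after BaCl2 together, 20 of the 90 passed: H2-Aa, H2-Eb1, Cd74, Astn2, Ptn, Clec3b, Rgs5, Agt, Ecm1, Lpl, Angptl4, Mylip, Pltp, Ccl5, Il11, Irf1, Timp2, Des, Dusp1 and Zfp36. They include 17 of the 35, and the other 18 had adjusted p-values of 0.0536 to 0.145 there. The joint model's adjusted p for any other gene named below was above 0.05. A list of genes is described by its counts and its median difference, beside 3.92% passing and a median difference of 0.01 over all 13960 genes, and no test was made on a list. Counts at an unadjusted p under 0.05 in the difference test stand beside 3004 of the 13960 genes. For such counts within one injury, the share over all genes is not given here.

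Genes that passed after both injuries mostly did so in the same direction. Of the 13960 genes, 92 passed after each injury in the same direction (0.659%), 85 higher and 7 lower in SMA, against 2 in opposite directions (0.0143%). The shared 94 genes are 11.4% of the 825 genes called after BaCl2 and 22.9% of the 410 called after glycerol. These counts need all 8 glycerol libraries. Without any 1 of SMA libraries 2 and 4 and WT libraries 1 and 3 after glycerol, 0 genes passed after glycerol, so none could be shared. The glycerol calls were 3 without SMA library 1 or WT library 2, 82 without WT library 4 and 1645 without SMA library 3 after glycerol. Smn1, which encodes the survival motor neuron protein in mice, stood at 12.0, 9.995 and 11.3 CPM in SMA and at 15.8, 17.2 and 15.3 CPM in WT libraries after BaCl2. The values after glycerol were 640, 806, 738 and 794 normalized counts in SMA and at 1209, 935, 1084 and 1108 in WT libraries. In both injuries the SMA values were all lower than the WT values, and the Smn1 effect was -0.54 after each, with a difference of -0.00 (SE 0.14, 95% interval -0.29 to 0.29). Apoe, which carries cholesterol and other lipids out of macrophages, stood at 1607, 1336 and 1266 CPM in SMA and at 567, 624 and 602 CPM in WT libraries after BaCl2. In the glycerol libraries it stood at 114341, 149366, 57710 and 159227 normalized counts in SMA and at 42401, 38676, 38084 and 47966 in WT libraries. The genotypes did not overlap after either injury, with SMA library 3 the lowest of the SMA libraries in both, and the difference for Apoe was 0.20 (95% interval -0.45 to 0.84).

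The other 7 genes named for the largest effects in the same direction after both injuries follow. Ccr2, the chemokine receptor that brings monocytes into tissue, had an effect of 1.22 after BaCl2 and 1.15 after glycerol. Il1b, the inflammatory cytokine interleukin-1 beta, stood at 1.13 and 1.26, and Csf3r, the receptor for granulocyte colony-stimulating factor, at 1.16 and 1.21. Cyp4f18, which inactivates leukotriene B4, stood at 1.27 and 1.54, Ms4a4a at 1.32 and 1.27, Sirpb1b at 1.16 and 1.34, and Slc28a2, a nucleoside transporter, at 1.17 and 1.15. None of these 7 differences passed (adjusted p = 0.695 to 0.977 in the difference test). The 95% interval of the difference lay within a 1.5-fold change for 8239 genes (59%), among them 28 of the 92. The 6 of these with the smallest SE were Atosb (-0.04, 95% interval -0.20 to 0.13), Hmga1, a chromatin protein (0.06, -0.11 to 0.23), Rel, an NF-kB subunit (-0.01, -0.20 to 0.18), Bcl2l11, Etv3 and Sc5d, an enzyme of cholesterol synthesis (-0.23, -0.47 to 0.01). All of these intervals lay within 1.5-fold.

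Agt and Ecm1 were the 2 genes that passed after both injuries in opposite directions. Agt, which encodes angiotensinogen, the precursor of the vessel-constricting angiotensin peptides, stood at 4.86, 5.79 and 8.78 CPM in SMA and at 11.1, 10.1 and 12.6 CPM in WT libraries after BaCl2. Its glycerol values were 337, 396, 322 and 301 normalized counts in SMA and at 134, 215, 206 and 184 in WT libraries. Agt was thus lower in every SMA library after BaCl2 and higher in every SMA library after glycerol, with effects of -0.80 and 0.89 and a difference of 1.69 (SE 0.25, difference test, adjusted p = 0.00511). Ecm1, an extracellular matrix glycoprotein, stood at 226, 263 and 259 CPM in SMA and at 321, 359 and 333 CPM in WT libraries after BaCl2. After glycerol it stood at 21334, 22876, 24434 and 24491 normalized counts in SMA and at 18113, 21082, 18168 and 18083 in WT libraries. The genotypes did not overlap in either injury, but SMA library 1 and WT library 2 after glycerol lay close together. The Ecm1 difference was 0.74 (SE 0.10, adjusted p = 0.00176). Astn2, a membrane protein known from neuronal migration, had the third largest positive difference among the genes named by level, at 1.57 (SE 0.21, adjusted p = 0.00176). It stood at 15.1, 13.9 and 11.8 CPM in SMA and at 22.03, 28.2 and 31.7 CPM in WT libraries after BaCl2, and at 1736, 1983, 1566 and 1391 normalized counts in SMA and 830, 1100, 1305 and 1308 in WT libraries after glycerol. Here too the genotypes separated in opposite directions, although the effect after glycerol alone did not pass (0.57, limma adjusted p = 0.0841). The genotypes did not overlap for 30% of all genes after BaCl2 and 14.3% after glycerol, and separated in opposite directions for 160 genes (1.15%), of which 112 were among the 547. In the difference test, Agt, Ecm1 and Astn2 passed whichever library was left out. The calls within one injury were less firm. Agt had an adjusted p of 0.0467 after BaCl2 (edgeR) and 0.0353 after glycerol (limma), and Ecm1 of 0.0128 and 0.0489. Without any 1 of SMA libraries 2 and 4 and WT libraries 1 and 3 after glycerol, 0 genes passed after glycerol, so neither gene did.

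**Figure D2:**
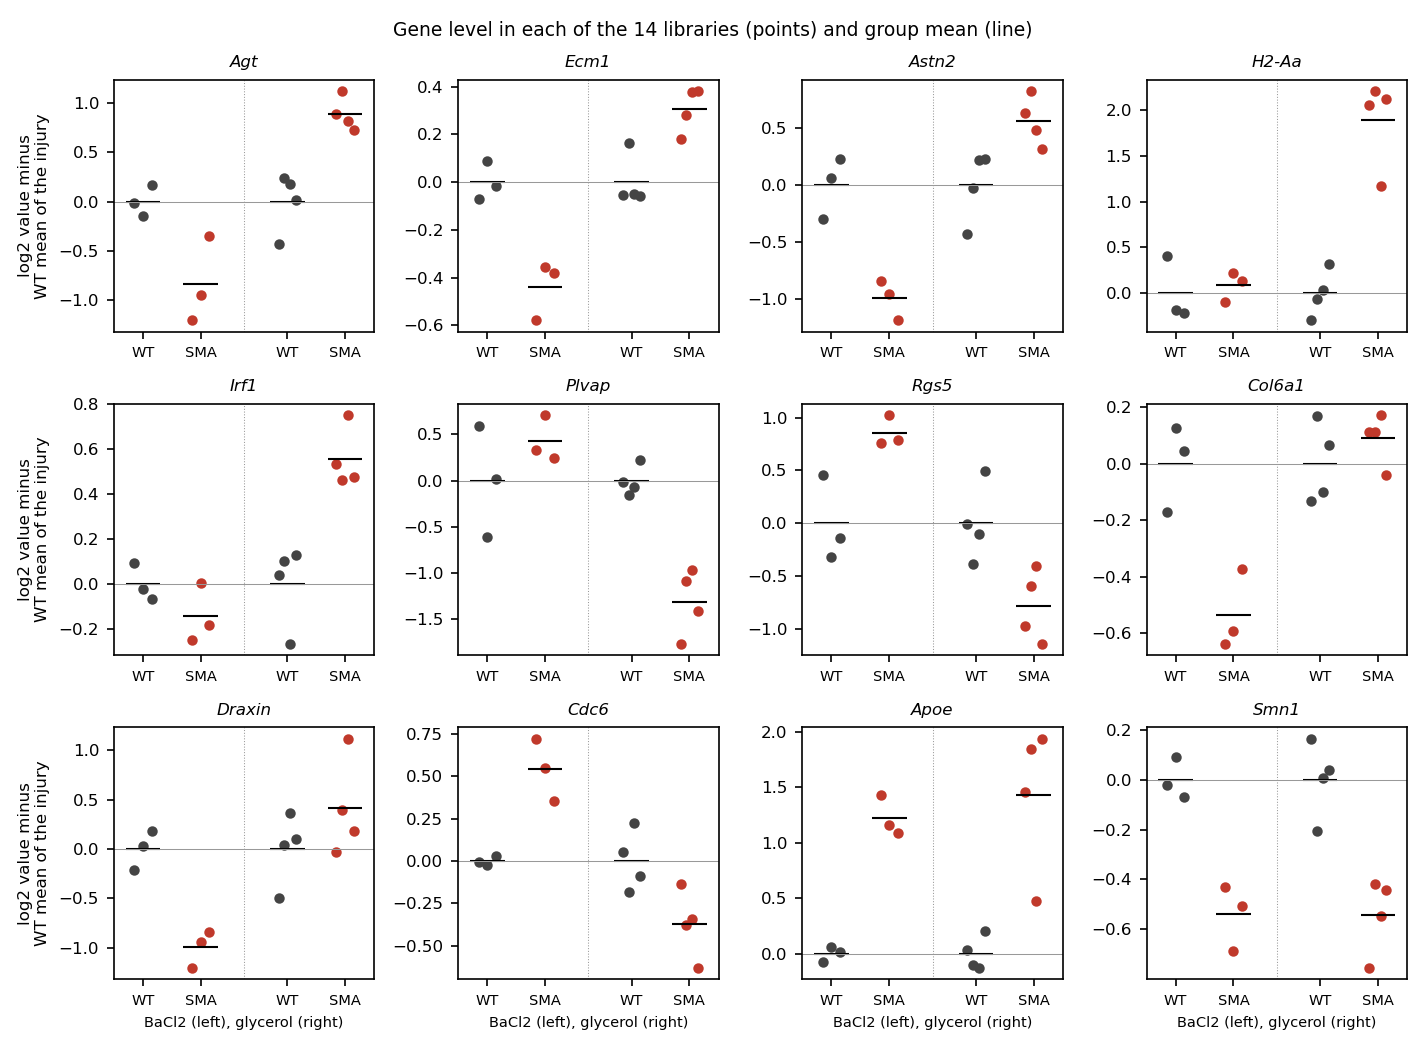
Each panel plots 1 gene, with the log2 value of each of the 14 libraries minus the mean of the WT libraries of the same injury on the y axis (log2 CPM after BaCl2, log2 normalized counts after glycerol), points for libraries and a line for the group mean. In the panels of Agt, Ecm1 and Astn2 the SMA libraries (red) lie below WT after BaCl2 and above WT after glycerol, in those of Plvap and Rgs5 they lie below WT after glycerol, and in those of Apoe and Smn1 they lie on the same side after both injuries.

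MHC class II molecules present peptides to CD4+ T cells, and their genes are switched on by interferon gamma through the activator Ciita. The Y box, the letters ATTGG or, on the other strand, CCAAT, is a known element of class II promoters and of many other promoters. H2-Aa and H2-Eb1 had the largest positive differences among the genes named by level. The 150 bases before their starts, from RefSeq on GRCm38.p6, are shown with the Y box in capitals, H2-Aa from chr17:34287824-34287973 (minus strand) and H2-Eb1 from chr17:34305717-34305866 (plus strand).
H2-Aa: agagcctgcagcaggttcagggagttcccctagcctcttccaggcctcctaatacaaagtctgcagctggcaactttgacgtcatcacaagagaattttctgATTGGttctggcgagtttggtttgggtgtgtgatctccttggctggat
H2-Eb1: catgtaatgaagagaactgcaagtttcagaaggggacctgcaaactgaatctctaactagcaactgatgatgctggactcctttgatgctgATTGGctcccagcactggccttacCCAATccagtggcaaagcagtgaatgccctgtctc
Searched on both strands over 250 bases before the start, the Y box letters occurred in 6 of 9 list members with a promoter entry, in 3 of 3 of those that passed, and in 37.5% of all 27025 genes with an entry. They occurred in 12 of 15 MHC class I genes and in 4 of 4 of those that passed, so the letters do not set class II apart.

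All 13 MHC class II genes tested had a more positive SMA effect after glycerol than after BaCl2, and 6 of the 13 passed. The median effect was 0.39 after BaCl2 and 1.40 after glycerol, and the median difference was 0.87. H2-Aa, the alpha chain of a class II molecule, stood at 27.7, 34.5 and 32.6 CPM in SMA and at 39.4, 26.1 and 25.5 CPM in WT libraries after BaCl2, so the genotypes overlapped. The values after glycerol were 3323, 3696, 1805 and 3493 normalized counts in SMA and at 651, 767, 822 and 999 in WT libraries, and every SMA library lay above every WT library. The fold was 1.04 after BaCl2 and 3.70 after glycerol, a difference of 1.83 on the log2 scale (SE 0.27, difference test, adjusted p = 0.00705). Cd74, the invariant chain that guides class II molecules to the endosome, stood at 66.4, 77.8 and 63.5 CPM in SMA and at 65.7, 46.8 and 45.5 CPM in WT libraries after BaCl2, against 7730, 8912, 4392 and 7887 normalized counts in SMA and 1745, 2001, 2260 and 2408 in WT libraries after glycerol. Its difference was 1.35 (SE 0.25, adjusted p = 0.0119). H2-Eb1, a class II beta chain, differed by 1.62 (SE 0.28, adjusted p = 0.0115). These 3 genes passed whichever library was left out. Ciita itself differed by 2.30 (SE 0.50, adjusted p = 0.0201; 0.0556 without WT library 3 after BaCl2), at a mean of only 0.504 CPM in SMA against 0.551 CPM in WT libraries after BaCl2. The count of passing members was 4 of 13 without any 1 of 8 libraries and 8 without SMA library 3 after glycerol. Macrophages and dendritic cells also make class II. The summed level of 26 macrophage markers was 2517 to 3739 CPM in SMA against 1380 to 1918 CPM in WT libraries after BaCl2, and 150421 to 367286 normalized counts in SMA and 128249 to 164577 in WT libraries after glycerol. Their median effect was 0.93 after BaCl2 and 1.01 after glycerol, and 0 of the 26 markers passed the difference test (2 at an unadjusted p under 0.05, 1 with a normal reference, 0 in the joint limma model), though 3 passed without SMA library 3 after BaCl2. The differences of the 26 markers ran from -2.13 to 0.88. Their 95% interval lay within a 1.5-fold change for 3 of the 26, against 59% of all genes, so not passing does not show that their effects were alike. SMA library 3 after glycerol was the lowest SMA library for macrophage markers and for class II alike. The part of these cells in the class II difference was not tested.

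Interferon response genes leaned down in SMA after BaCl2 and up after glycerol. Of 27 tested, 26 had a positive difference, 9 passed, and the median effect was -0.36 after BaCl2 and 0.46 after glycerol. Irf1, a transcription factor induced by interferon gamma, stood at 119, 142 and 125 CPM in SMA and at 151, 139 and 135 CPM in WT libraries after BaCl2, where the genotypes overlapped. In the glycerol libraries it stood at 21993, 20979, 25616 and 21160 normalized counts in SMA and at 15643, 16300, 12628 and 16623 in WT libraries, with every SMA library above every WT library. The difference for Irf1 was 0.70 (SE 0.12, difference test, adjusted p = 0.0115). Stat2 and Irf9, which carry the type I interferon signal to the genome, differed by 0.85 (SE 0.16, adjusted p = 0.0116) and 0.67 (SE 0.13, adjusted p = 0.0135). Irf1, Stat2 and Irf9 passed whichever library was left out. Irf7, which amplifies interferon production, stood at 42.2, 47.3 and 78.4 CPM in SMA and at 76.3, 88.4 and 84.9 CPM in WT libraries after BaCl2, so SMA library 3 lay among the WT libraries. Its glycerol values were 14407, 19156, 18831 and 22451 normalized counts in SMA and at 5755, 15934, 11951 and 10807 in WT libraries. Its difference was 1.40 (SE 0.33, adjusted p = 0.0313), and it passed without only 6 of the 14 libraries, with its highest adjusted p of 0.0734 without SMA library 2 after glycerol. Oas2, a sensor of double-stranded RNA, differed by 1.25 (SE 0.27, adjusted p = 0.0189; 0.0501 without WT library 3 after BaCl2). The interferon count was 4 of 27 without WT library 3 after BaCl2 or SMA library 2 after glycerol, 25 without SMA library 3 after BaCl2 and 1 without SMA libraries 1 and 2 after BaCl2 together, and WT library 1 after glycerol had a summed level of 161147 normalized counts against 233133 to 273297 in the other WT libraries.

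MHC class I molecules show peptides to CD8+ T cells, and their genes are also induced by interferon. Their median effect was -0.19 after BaCl2 and 0.27 after glycerol, and 4 of 18 passed, all more positive after glycerol. H2-T23, a nonclassical class I gene that serves as a ligand of natural killer cell receptors, differed by 1.36 (SE 0.28, difference test, adjusted p = 0.0192), H2-T22 by 0.80 (SE 0.20), Tapbp, the peptide loading factor tapasin, by 0.67 (SE 0.16), and B2m, the light chain shared by all class I molecules, by 0.65 (SE 0.16). H2-T23 and H2-T22 have near-identical relatives, so reads may have been split between them. The call was lost for H2-T23 without SMA library 2 (adjusted p = 0.0529) or WT library 3 after glycerol, for H2-T22 without 7, for Tapbp without 6 and for B2m without 9 of the 14 libraries, and the class I count ran from 0 of 18 without SMA library 2 or WT library 3 after glycerol (16 had an unadjusted p under 0.05 with all libraries) to 11 without SMA library 3 after BaCl2 or WT library 2 after glycerol. The 150 bases before 2 of these genes are shown with a core of the interferon-stimulated element in capitals (GAAA, any 2 bases and GAAA again, or the reverse complement; it was chosen after the values were seen), H2-T23 from chr17:36032702-36032851 (minus strand) and B2m from chr2:122147537-122147686 (plus strand).
H2-T23: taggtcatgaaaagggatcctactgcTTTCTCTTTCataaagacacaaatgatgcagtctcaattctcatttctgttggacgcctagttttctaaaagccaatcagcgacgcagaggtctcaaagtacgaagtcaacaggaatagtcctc
B2m: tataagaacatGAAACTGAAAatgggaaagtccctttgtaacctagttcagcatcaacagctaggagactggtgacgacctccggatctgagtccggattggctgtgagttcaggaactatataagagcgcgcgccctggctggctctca
On both strands over 250 bases, these letters occurred in 3 of the 4 class I genes that passed, in 3 of 15 class I genes with an entry, in 9 of 19 interferon response genes, in 1 of 7 of those that passed, and in 3.46% of all 27025 genes.

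Of 16 genes for CC chemokines and their receptors, 11 had a negative difference (median -0.14) and 1 passed in each direction. Of 14 CXC chemokine genes, 8 had a positive and 6 a negative difference (median 0.10), and 2 passed, both more positive after glycerol. The CC count was 1 to 3 and the CXC count 0 to 3 without single libraries. Ccl5, which draws T cells and monocytes, stood at 2.62, 2.40 and 2.69 CPM in SMA and at 4.02, 4.58 and 3.12 CPM in WT libraries after BaCl2. After glycerol it stood at 248, 367, 327 and 297 normalized counts in SMA and at 115, 220, 163 and 191 in WT libraries. The genotypes separated in opposite directions, and the difference for Ccl5 was 1.47 (SE 0.27, difference test, adjusted p = 0.0116), and it passed whichever library was left out. Cxcl9 and Cxcl10, ligands of Cxcr3, a chemokine receptor of T cells, differed by 1.501 (SE 0.39, adjusted p = 0.039) and 1.10 (SE 0.26, adjusted p = 0.027). They lost the call without 10 and 6 of the 14 libraries, with highest adjusted p-values of 0.113 without WT library 3 after BaCl2 and 0.0736 without WT library 3 after glycerol. Cd4, which marks helper T cells and is also found on some myeloid cells, differed by 1.30 (SE 0.29, adjusted p = 0.0207), and its adjusted p was 0.06 without WT library 3 after BaCl2 and above 0.05 without SMA library 2 after BaCl2 as well. Of the 7 lymphocyte markers tested, Cd4 alone passed.

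**Figure D3:**
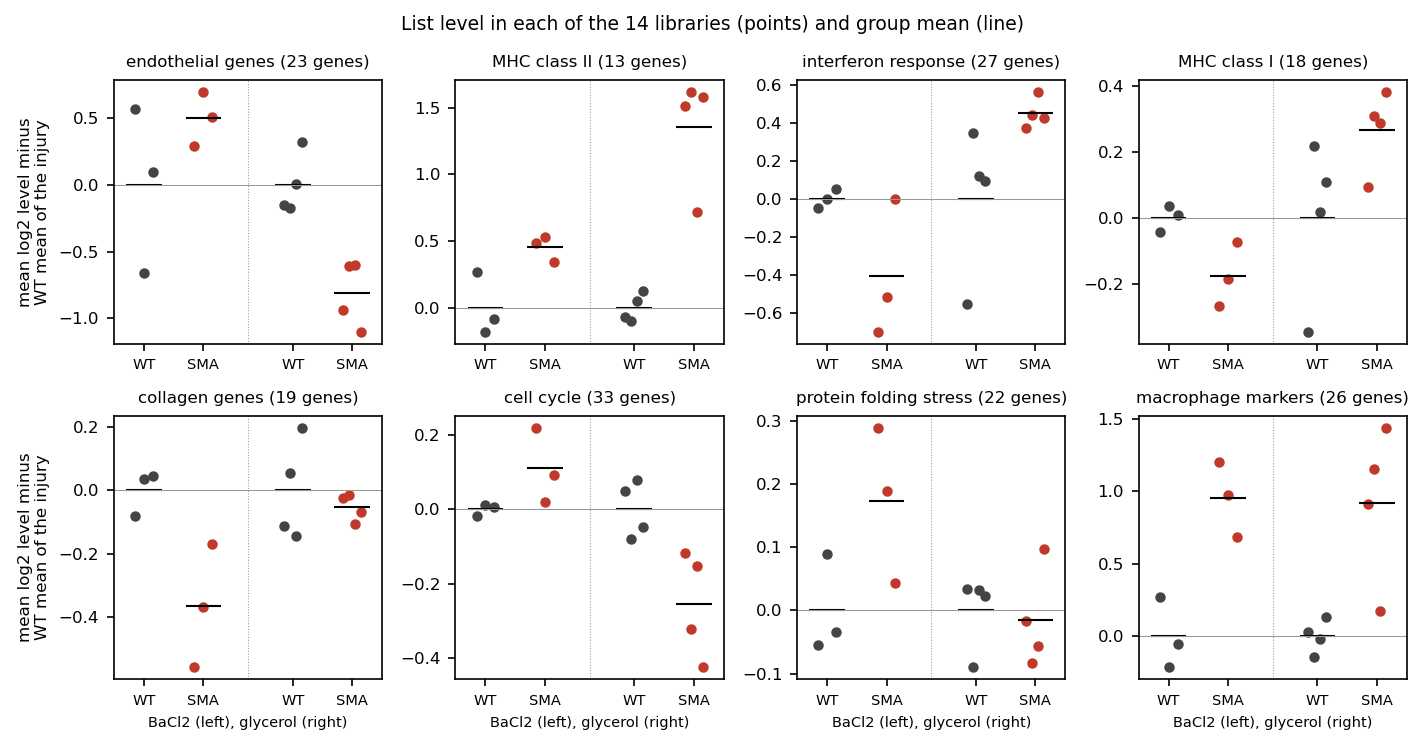
Each panel plots the mean log2 level of the tested genes of 1 list in each of the 14 libraries, minus the mean of the WT libraries of the same injury (y axis), with points for libraries and a line for the group mean. Endothelial genes lie between -1.10 and -0.60 in the 4 SMA libraries after glycerol and between 0.29 and 0.69 in the 3 after BaCl2, while macrophage markers lie above 0 in the SMA libraries of both injuries.

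Endothelial genes had the most negative median difference of the 50 lists, at -1.39. Of 23 tested, 22 had a negative difference and 15 passed, all of them more negative after glycerol, and the median effect was 0.45 after BaCl2 and -0.93 after glycerol. Plvap, which forms the diaphragms of capillary pores, stood at 42.6, 55.2 and 39.9 CPM in SMA and at 50.9, 22.1 and 34.3 CPM in WT libraries after BaCl2, so the genotypes overlapped. The values after glycerol were 495, 794, 860 and 632 normalized counts in SMA and at 1674, 1520, 1614 and 1974 in WT libraries, with every SMA library below every WT library. The fold was 1.28 after BaCl2 and 0.403 after glycerol, a difference of -1.67 (SE 0.29, difference test, adjusted p = 0.0115). Cdh5, the cadherin of endothelial junctions, stood at 53.5, 67.6 and 63.5 CPM in SMA and at 56.3, 23.1 and 41.3 CPM in WT libraries after BaCl2. In the glycerol libraries it stood at 1328, 1860, 1992 and 1249 normalized counts in SMA and at 2637, 2499, 3097 and 3942 in WT libraries. WT library 2 was the lowest of its injury for both genes, and the Cdh5 difference was -1.54 (SE 0.31, adjusted p = 0.0144). Sox18, a transcription factor of vessel growth (-1.60, SE 0.30), Adgrf5, an adhesion receptor (-1.56, SE 0.29), and Tie1, an angiopoietin co-receptor (-1.49, SE 0.30), also passed whichever library was left out, as did Plvap and Cdh5. Ptprb, a phosphatase that restrains the angiopoietin receptor, differed by -1.42 (SE 0.33, adjusted p = 0.0246), and lost the call without SMA library 2 or WT library 3 after BaCl2 (0.0758) or WT library 3 after glycerol. Pecam1, an adhesion molecule of endothelium, differed by -1.31 (SE 0.32, adjusted p = 0.0322) and lost it without 5 of the 14 libraries (at most 0.0899, without WT library 3 after BaCl2). Over the BaCl2 libraries, the count was 5 of 23 with WT library 3 left out, 19 with WT library 1 left out and 0 of 23 without SMA libraries 1 and 2 after BaCl2 together. After BaCl2 alone 0 of 23 endothelial genes passed (edgeR; 5 at an unadjusted p under 0.05), after glycerol 11 were lower, and the summed level overlapped, at 600.2 to 780 CPM in SMA against 411 to 715 CPM in WT libraries. After glycerol it was 20709 to 25123 normalized counts in SMA and 31186 to 43048 in WT libraries. These are markers of a cell type other than FAPs, and whether the number of endothelial cells in the sort differed was not tested.

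Among genes of vessel-wall cells and Notch signalling, a few passed. Rgs5, a pericyte marker that dampens G protein signalling, stood at 63.4, 76.0 and 64.4 CPM in SMA and at 51.3, 30.03 and 33.9 CPM in WT libraries after BaCl2. Its glycerol values were 2044, 2654, 3041 and 1820 normalized counts in SMA and at 3993, 3078, 3746 and 5660 in WT libraries. The genotypes separated in opposite directions, with a difference of -1.60 for Rgs5 (SE 0.27, difference test, adjusted p = 0.0103) that passed whichever library was left out. Mcam, an adhesion molecule of pericytes and endothelium, differed by -1.15 (SE 0.26, adjusted p = 0.0224; 0.0579 without WT library 3 after glycerol). Des, the muscle intermediate filament desmin, went the other way at 0.79 (SE 0.13, adjusted p = 0.00824), with an effect of -0.74 after BaCl2 and 0.05 after glycerol. Pericyte and smooth muscle genes thus held 1 more positive and 2 more negative of 17, and 5 passed without SMA library 3 of either injury. The Notch ligand Dll4, which guides sprouting vessels, differed by -1.77 (SE 0.39, adjusted p = 0.0207; 0.055 without WT library 3 after BaCl2, and also above 0.05 without WT library 3 after glycerol). The Notch target Nrarp differed by -1.86 (SE 0.48, adjusted p = 0.0444) and passed without only 2 of the 14 libraries. They were the 2 of 15 Notch genes that passed, against 0 without WT library 3 of either injury.

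Several collagen and matrix-remodelling genes were lower in SMA after BaCl2 and none of the collagens was after glycerol (limma). Of 19 collagen genes, 6 were lower after BaCl2 and 0 passed after glycerol (3 at an unadjusted p under 0.05), 16 had a positive difference and 4 passed. The median effect was -0.38 after BaCl2 and -0.07 after glycerol. Col6a1, a chain of the microfibril collagen VI that surrounds muscle fibres, stood at 2526, 2607 and 3038 CPM in SMA and at 3493, 4289 and 4054 CPM in WT libraries after BaCl2, with every SMA library below every WT library. After glycerol it stood at 207159, 207188, 215692 and 186326 normalized counts in SMA and at 174643, 215322, 178691 and 200321 in WT libraries, where the genotypes overlapped. The difference was 0.62 for Col6a1 (SE 0.12, difference test, adjusted p = 0.0138) and 0.66 for Col6a2, its partner chain (SE 0.13, adjusted p = 0.0119). Both passed whichever library was left out. Col18a1, the source of endostatin, differed by 0.55 (SE 0.12) and Col23a1, a membrane collagen, by 0.89 (SE 0.23), and they passed without only 8 and 2 of the 14 libraries. The collagen count was 2 of 19 without any 1 of 6 libraries, 8 without SMA library 3 after BaCl2 and 0 without SMA libraries 1 and 2 after BaCl2 together.

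Among matrix metalloproteinases and their inhibitors 5 of 19 passed, all more positive after glycerol. The list as a whole did not lean that way, with 9 positive and 10 negative differences and a median difference of -0.06. Timp2, an inhibitor that also helps to activate proMMP2, differed by 0.66 (SE 0.12, difference test, adjusted p = 0.0116) and passed whichever library was left out. Mmp14, the membrane protease that activates Mmp2, differed by 0.52 (SE 0.12, adjusted p = 0.0207; up to 0.0546, and lost after leaving out WT 2 or WT 3 of the BaCl2 or WT 3 of the glycerol libraries). Mmp2, gelatinase A, differed by 0.61 (SE 0.14) and Mmp9, gelatinase B, by 0.69 (SE 0.16), and each lost the call without 4 libraries. The count was 1 of 19 without WT library 2 after BaCl2 or WT library 3 after glycerol. Pcolce, which speeds the trimming of procollagen, differed by 0.41 (SE 0.10, adjusted p = 0.0333) as the single member of 20 collagen-modifying genes to pass, and it passed without 6 of the 14 libraries. Ccn1, a matricellular protein induced by growth factors and stretch, differed by 0.71 (SE 0.14, adjusted p = 0.0151; 0.0583 without WT library 3 after BaCl2), and Mfap2, a microfibril protein, by 0.87 (SE 0.20, adjusted p = 0.0243; 8 of 14), as the 2 of 28 matricellular and elastic fibre genes that passed. That count was 0 without WT library 3 and 6 without SMA library 3 after BaCl2. The leucine-rich proteoglycans Dcn (0.40, adjusted p = 0.0841) and Lum (0.51, adjusted p = 0.0501) did not pass.

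DNA replication genes leaned the opposite way. All 33 cell cycle genes had a negative difference, 8 passed, and the median effect was 0.12 after BaCl2 and -0.27 after glycerol. Cdc6, which loads the replicative helicase onto DNA, stood at 14.02, 12.4 and 10.9 CPM in SMA and at 8.48, 8.37 and 8.68 CPM in WT libraries after BaCl2, with every SMA library above every WT library. The values after glycerol were 738, 623, 640 and 524 normalized counts in SMA and at 840, 714, 946 and 762 in WT libraries, where SMA library 1 overlapped WT. The difference was -0.92 (SE 0.16, difference test, adjusted p = 0.0115). Mcm3 and Mcm2, subunits of that helicase, differed by -0.66 (SE 0.13, adjusted p = 0.013) and -0.60 (SE 0.12, adjusted p = 0.0151). These 3 genes passed whichever library was left out. Mki67, a marker of dividing cells, differed by -0.50 (SE 0.11, adjusted p = 0.0192; 0.0522 without WT library 3 after glycerol). The count was 3 of 33 without WT library 3 after glycerol, 18 without SMA library 3 after glycerol and 0 without SMA libraries 1 and 2 after BaCl2 together (26 had an unadjusted p under 0.05 with all libraries).

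Chaperones of the endoplasmic reticulum, which rise when secreted proteins fold badly, included some that were higher in SMA after BaCl2. Of 22 unfolded protein and stress response genes, 5 were higher after BaCl2 and 1 after glycerol, and 7 passed the difference test, all more negative after glycerol. Over the 22, 15 had a negative and 7 a positive difference (median -0.24, up to 0.72). Hyou1, a large chaperone of that compartment, stood at 365, 314 and 287 CPM in SMA and at 197, 244 and 218 CPM in WT libraries after BaCl2, with no overlap. In the glycerol libraries it stood at 16091, 13447, 15567 and 16520 normalized counts in SMA and at 16608, 15173, 18861 and 16164 in WT libraries, with overlap. The difference was -0.67 for Hyou1 (SE 0.13, adjusted p = 0.0122) and -0.47 for Dnajc3, a co-chaperone (SE 0.08, adjusted p = 0.0115), and both passed whichever library was left out. Creld2 (-0.64, SE 0.14), Manf (-0.53, SE 0.12) and Sdf2l1 (-0.87, SE 0.21), which are induced by the same response, passed without 11, 9 and 8 of the 14 libraries, with highest adjusted p-values of 0.0589, 0.0711 and 0.0758 without WT library 3 after BaCl2. The count was 2 of 22 without WT library 1 or 3 after BaCl2 or WT library 3 after glycerol, 10 without SMA library 3 after BaCl2 and 0 without SMA libraries 1 and 2 after BaCl2 together (13 had an unadjusted p under 0.05 with all libraries).

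Signals that act on FAPs differed for single genes. Draxin, a secreted inhibitor of Wnt signalling known from axon guidance, stood at 13.3, 16.0 and 17.1 CPM in SMA and at 26.4, 31.3 and 34.9 CPM in WT libraries after BaCl2, with every SMA library below every WT library. Its glycerol values were 1779, 2391, 3939 and 2062 normalized counts in SMA and at 1291, 1863, 2340 and 1943 in WT libraries, where the genotypes overlapped and SMA library 3 was the highest. Its difference was 1.41 (SE 0.28, difference test, adjusted p = 0.0203; 0.0518 without SMA library 2 after glycerol). Wnt5b, a Wnt ligand, differed by 0.96 (SE 0.21, adjusted p = 0.0203) and passed whichever library was left out. Rspo2, a secreted amplifier of Wnt signalling, differed by 1.46 (SE 0.40, adjusted p = 0.0488) at a mean of 1.12 CPM in SMA against 3.11 CPM in WT libraries after BaCl2, and passed without only 2 of the 14 libraries. These were the 3 of 25 Wnt genes that passed, and the count was 1 without SMA library 2 after glycerol and 6 without SMA library 3 after BaCl2. Over the 25, 16 had a positive and 9 a negative difference (median 0.24, down to -1.36).

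Ptn, the heparin-binding growth factor pleiotrophin, stood at 45.7, 69.5 and 96.9 CPM in SMA and at 84.3, 87.7 and 87.0 CPM in WT libraries after BaCl2, so SMA library 3 was the highest of that injury and the genotypes overlapped. After glycerol it stood at 8482, 9739, 9323 and 11421 normalized counts in SMA and at 4024, 5826, 4013 and 4298 in WT libraries, with every SMA library above every WT library. The difference for Ptn was 1.40 (SE 0.24, difference test, adjusted p = 0.0115), and it passed whichever library was left out. Among markers of FAPs, 3 of 28 passed, against 0 without either of WT libraries 1 and 3 after glycerol and 4 without either of WT libraries 2 and 4 after glycerol. Of the 28, 20 had a positive and 8 a negative difference (median 0.23). Their median effect was -0.18 after BaCl2 and 0.06 after glycerol. Within one injury, 4 were lower in SMA after BaCl2 (edgeR) and 0 passed after glycerol (limma, 7 at an unadjusted p under 0.05). Clec3b, the plasminogen-binding protein tetranectin, differed by 1.33 (SE 0.30, adjusted p = 0.0261; lost after leaving out WT 2 of the BaCl2 or WT 1 or WT 3 of the glycerol libraries, at most 0.0756). Islr, a stromal membrane protein, differed by 0.78 (SE 0.20, adjusted p = 0.0366; passed without 5 of the 14 libraries), and Hic1, a transcription factor of quiescent progenitors, by -0.35 (SE 0.09, adjusted p = 0.042; 4 of 14). Of 24 genes of BMP and activin signalling, Id3, a BMP target, differed by 0.35 (SE 0.09, adjusted p = 0.0441; 4 of 14) and Fstl1, a secreted glycoprotein that binds BMPs, by 0.45 (SE 0.12, adjusted p = 0.0479; 2 of 14), and neither they nor any other of the 24 passed without any 1 of 7 libraries. Grem1, a BMP antagonist, had a difference of 2.06 with a wide error (SE 0.59) and did not pass (adjusted p = 0.0547).

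Since glycerol is the injury followed by fat, genes of fat formation were compared in order from regulators to end products. The regulator Pparg, the master transcription factor of fat cells, had an effect of -0.13 after BaCl2 and 0.55 after glycerol, and the difference of 0.68 (SE 0.21, 95% interval 0.23 to 1.13) did not pass (difference test, adjusted p = 0.0841). Cebpa, its partner in late fat differentiation, differed by 0.47 (SE 0.13, adjusted p = 0.0577) and Cebpd, which acts early, by 0.50 (SE 0.14, adjusted p = 0.0547), and neither passed. Of 24 adipogenic transcription factors, 2 passed: Egr2, which promotes fat differentiation and is also listed as a Schwann cell gene, was more positive after glycerol (0.48, SE 0.12, adjusted p = 0.0286), and Gata2, which blocks fat differentiation and is also an endothelial factor, was more negative (-0.97, SE 0.26, adjusted p = 0.0444). They passed without 9 and 4 of the 14 libraries, with highest adjusted p-values of 0.0832 and 0.103 without WT library 3 after BaCl2. The count was 0 of 24 without any 1 of 5 libraries (11 had an unadjusted p under 0.05 with all libraries) and 4 without SMA library 3 after BaCl2.

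Genes that handle fatty acids held more passing members. Lpl, lipoprotein lipase, which frees fatty acids from circulating triglyceride, stood at 465, 545 and 530 CPM in SMA and at 573, 629 and 654 CPM in WT libraries after BaCl2. The values after glycerol were 72131, 78458, 64494 and 73875 normalized counts in SMA and at 49635, 60686, 57001 and 46309 in WT libraries. Lpl separated the genotypes in opposite directions, with a difference of 0.71 (SE 0.12, difference test, adjusted p = 0.0107). Angptl4, an inhibitor of that lipase and a target of PPAR factors, differed in the same sense by 0.60 (SE 0.12, adjusted p = 0.0151). Gpihbp1, which holds the lipase on capillary endothelium, differed by -1.66 (SE 0.33, adjusted p = 0.015), in the direction of the endothelial genes. These 3 passed whichever library was left out. Acsl3, which activates fatty acids at lipid droplets, differed by -0.39 (SE 0.10, adjusted p = 0.0372; passed without 7 of the 14 libraries). In all 3 of 19 genes of fatty acid uptake and storage were more positive and 3 more negative after glycerol. The 6 became 3 without SMA library 2 or WT library 3 of the BaCl2 set, or without SMA library 2 or WT library 1 of the glycerol set. All 13 fatty acid synthesis enzymes had a negative difference, and 2 passed (1 without any 1 of 8 libraries, 4 without SMA library 3 after glycerol): Fasn, fatty acid synthase (-0.61, SE 0.13, adjusted p = 0.0162), whichever library was left out, and Elovl5, an elongase (-0.33, SE 0.09, adjusted p = 0.0417), without 5 of the 14. Scd1, the desaturase, differed by -0.37 and did not pass (adjusted p = 0.0562).

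Genes of mature fat cells were low and variable. Plin1, the coat protein of the fat cell droplet, stood at 0.548, 0.942 and 0.904 CPM in SMA and at 1.46, 1.30 and 1.71 CPM in WT libraries after BaCl2. In the glycerol libraries it stood at 336, 122, 253 and 55.5 normalized counts in SMA and at 10.9, 55.5, 117 and 31.7 in WT libraries, with a spread of several fold within each genotype. Its difference of 2.85 (SE 0.78, 95% interval 1.13 to 4.57) did not pass (difference test, adjusted p = 0.0663). Adipoq, the fat cell hormone adiponectin, stood at 0.0392, 0.236 and 0.201 CPM in SMA and at 0.103, 0.130 and 0.226 CPM in WT libraries after BaCl2. Its glycerol values were 46.6, 21.2, 36.5 and 8.36 normalized counts in SMA and at 5.83, 3.09, 5.99 and 10.9 in WT libraries. SMA libraries 1, 2 and 3 lay above all WT libraries and SMA library 4 among them, and the difference of 1.76 (SE 0.86, adjusted p = 0.243) did not pass. Fabp4, a fatty acid carrier of fat cells, macrophages and endothelium, had a negative difference of -0.82 that did not pass (adjusted p = 0.0711). Of 12 mature fat cell genes, Car3, a carbonic anhydrase of fat and muscle, alone passed (2.45, SE 0.67, adjusted p = 0.0473), at a mean of 0.233 CPM in SMA against 0.298 CPM in WT libraries after BaCl2, and it passed without only 2 of the 14 libraries.

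Of 26 genes of cholesterol synthesis and its SREBP2 regulator, 25 had a negative difference and 0 passed the difference test. In that test 7 of the 26 had an unadjusted p under 0.05, against 3004 of all 13960 genes. With a normal reference 1 passed, and in the joint limma model 0. Without SMA library 3 after BaCl2, 5 passed. The median effect was -0.24 after BaCl2 and -0.53 after glycerol. Sqle, squalene epoxidase, had effects of -0.31 and -0.67, and Idi1, isopentenyl diphosphate isomerase, of -0.20 and -0.64. Among 18 liver X receptor and sterol export genes, 3 passed, all more positive after glycerol. The count was 1 without either of WT libraries 1 and 3 after glycerol and 5 without SMA library 3 after glycerol. That library had a summed level of 163040 normalized counts for this list, against 236334 to 297126 in the other SMA libraries. Pltp, which transfers phospholipids to HDL, had effects of 0.50 and 1.78 and a difference of 1.27 (SE 0.24, adjusted p = 0.0192; lost after leaving out glycerol libraries WT 1 or WT 3, at most 0.0579). Mylip, which marks the LDL receptor for degradation, had effects of -0.22 and 0.40 and a difference of 0.63 (SE 0.11, adjusted p = 0.0106), whichever library was left out. Npc2, which moves cholesterol out of lysosomes, differed by 0.52 (SE 0.11, adjusted p = 0.0219; lost after leaving out glycerol libraries SMA 2, WT 1 or WT 3, at most 0.0605). Abcg1, a cholesterol exporter, rose after both injuries (0.46 and 1.35), and its difference of 0.89 did not pass (adjusted p = 0.0813).

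**Figure D4:**
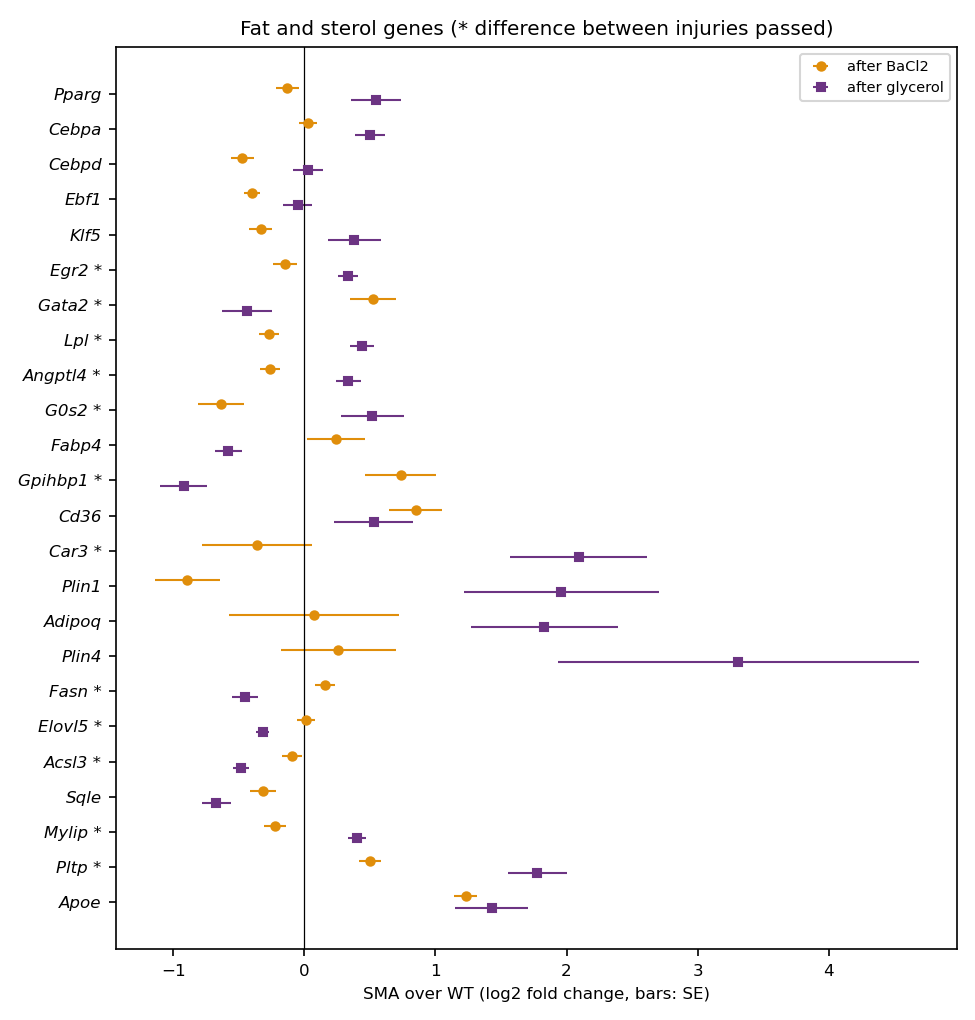
Log2 fold change SMA over WT (x axis) with its SE for 24 genes of fat formation, fatty acid handling and sterol balance after BaCl2 (circles) and after glycerol (squares), with an asterisk where the difference between the injuries passed. Lpl and Angptl4 lie left of 0 after BaCl2 and right of 0 after glycerol, Gpihbp1 does the reverse, and the widest bars belong to genes of mature fat cells such as Plin1, Adipoq and Plin4.

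A few genes expressed by macrophages differed between the injuries. Arg1, the arginase of repair macrophages, stood at 22.7, 11.7 and 7.96 CPM in SMA and at 4.42, 1.19 and 2.26 CPM in WT libraries after BaCl2, with every SMA library above every WT library. After glycerol it stood at 1901, 1443, 1127 and 3210 normalized counts in SMA and at 3279, 1183, 1169 and 2124 in WT libraries, with full overlap. Its fold was 5.35 after BaCl2 and 1.01 after glycerol, a difference of -2.41 (SE 0.59, difference test, adjusted p = 0.0315). Ccl6, a chemokine of myeloid cells, had effects of 1.61 and 0.01 and a difference of -1.61 (SE 0.39, adjusted p = 0.0286). F13a1, a clotting factor made by macrophages, differed by -1.24 (SE 0.34, adjusted p = 0.0494). Arg1, Ccl6 and F13a1 passed without 7, 7 and 4 of the 14 libraries, with highest adjusted p-values of 0.0899, 0.0771 and 0.13 on leaving out WT 3, WT 2 and WT 3 of the BaCl2 libraries. Acod1, which makes the antibacterial metabolite itaconate, was higher in SMA after BaCl2 (1.87) and had an effect of 0.78 after glycerol that did not pass, with a difference of -1.09 (SE 0.24, adjusted p = 0.0224; lost without SMA library 2 (0.0557) or WT library 1 after glycerol). Fcgrt, the receptor that recycles antibodies, differed by 0.54 (SE 0.11, difference test, adjusted p = 0.0125) and passed whichever library was left out. By contrast, Fcgr1 (0.90 and 1.08) and Fcgr2b (0.996 and 1.26), which bind antibodies at the cell surface, rose after both injuries.

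**Figure D5:**
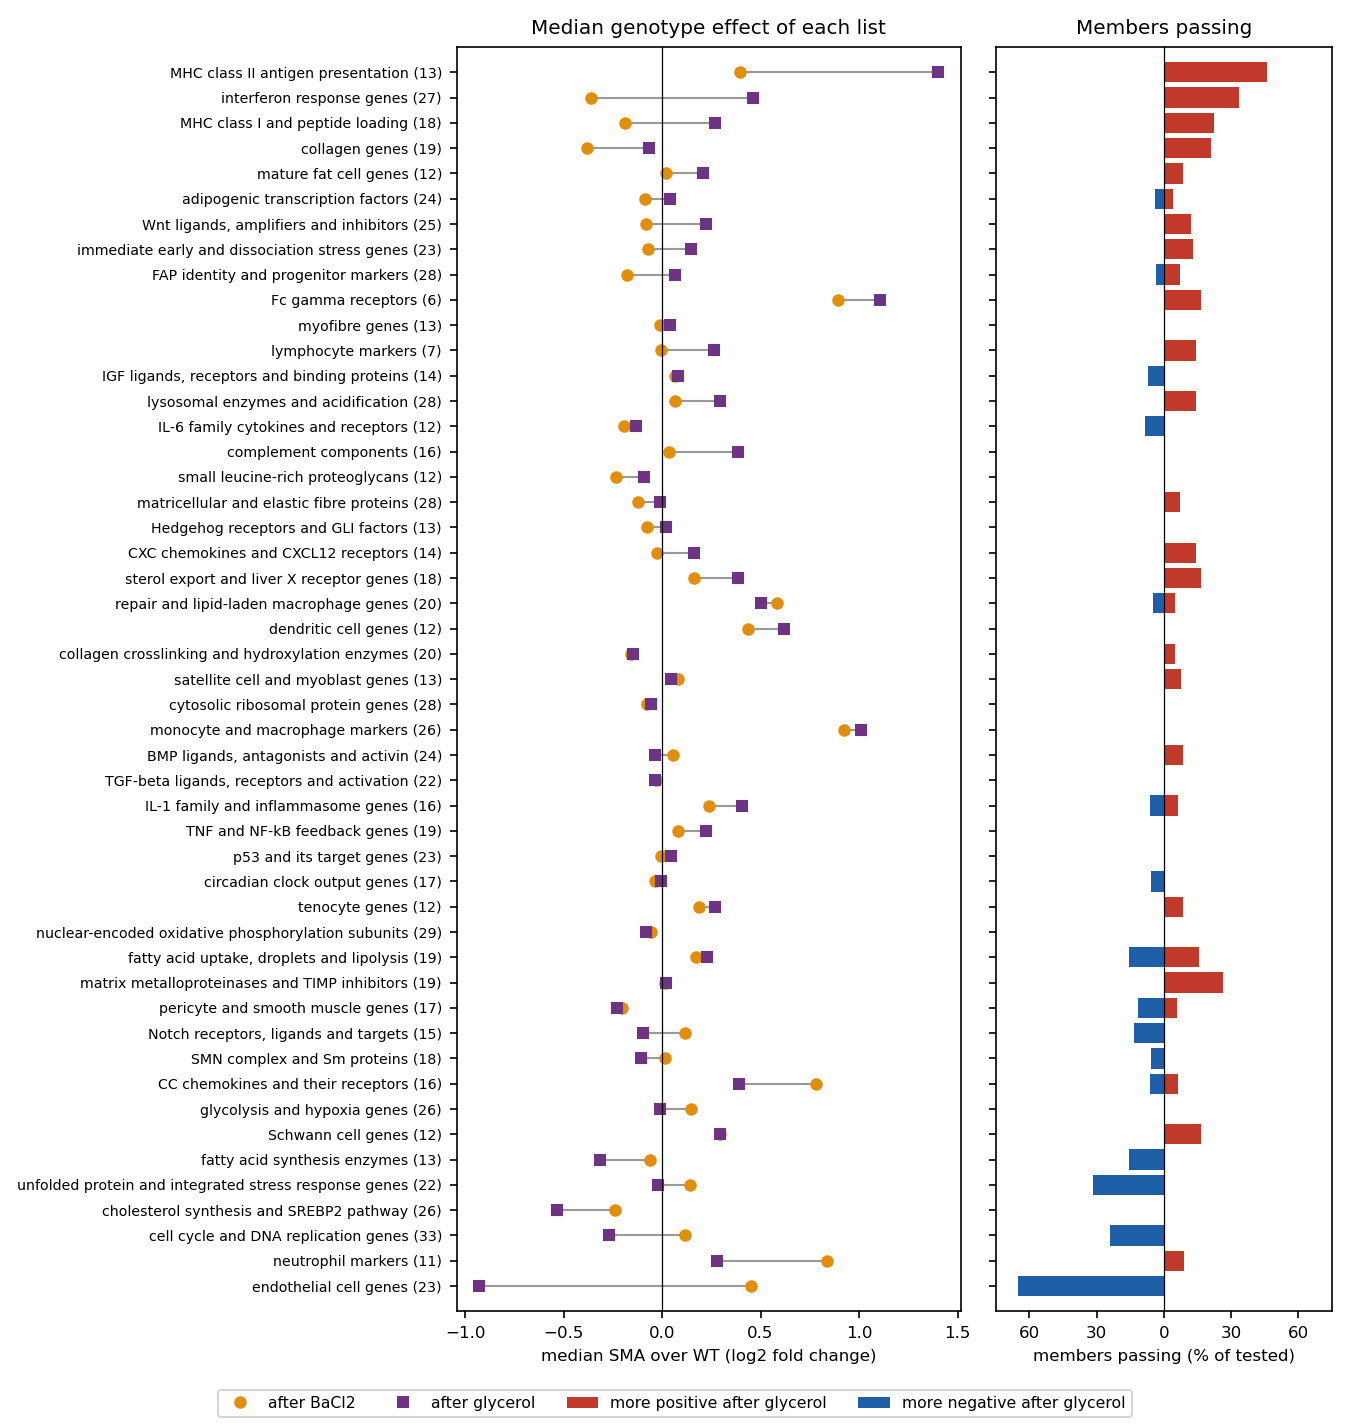
For each list with at least 5 tested genes (number in brackets), the left panel gives the median log2 fold change SMA over WT after BaCl2 (circle) and after glycerol (square), and the right panel the percent of its tested genes whose difference passed, more positive after glycerol to the right and more negative to the left. MHC class II and interferon response genes stand at the top and endothelial genes at the bottom, where 15 of 23 genes passed.

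Of the 50 lists, 14 held no gene whose difference passed. Of their 267 genes, 34 had an unadjusted p under 0.05 in the difference test, against 3004 of all 13960 genes. With a normal reference 8 passed, and in the joint limma model 0. With some library left out, 10 of the 14 lists held at least 1 passing gene. Besides macrophage markers and cholesterol synthesis the 14 lists were dendritic cell, complement, TNF and NF-kB feedback, leucine-rich proteoglycan, TGF-beta, Hedgehog, myofibre, erythroid, cytosolic ribosomal protein, oxidative phosphorylation, glycolysis and hypoxia, and p53 target genes. Ribosomal protein genes had differences between -0.07 and 0.21 over 28 genes. Among 18 genes for Sm proteins and the SMN complex that assembles them for splicing, Wdr77, a partner of the methyltransferase Prmt5, alone passed, with a difference of -0.41 (SE 0.10, difference test, adjusted p = 0.036; passed without 5 of the 14 libraries), and 3 passed without SMA library 3 after BaCl2.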

How the data were processed

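RNA was measured by poly(A)-selected, directional RNA-seq of 50 ng of total RNA, per the labels' protocols. The authors deposited raw counts for the BaCl2 libraries. The glycerol values are the authors' normalized counts (unit signal, per the file headers), are not whole reads, and keep no depth. Named in the submitters' processing notes are fastp, DESeq2, Salmon and featureCounts, with no version or role; the aligner was not given in the sources used here, nor were build and annotation. Per the file headers, both tables also hold the authors' log2 fold changes, p-values and adjusted p-values. The glycerol table adds the authors' SE and test statistic (a score), per the file headers, and none of these is printed. Another 6 columns of the BaCl2 table repeat the library names and hold counts scaled by gene mean and SD, as read from the values, and were not used.

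The tools were DESeq2 1.42.0, limma 3.58.1 and edgeR 4.0.16 under R 4.3.3. After BaCl2, counts were filtered with filterByExpr, scaled with TMM (factors 0.953 to 1.05) and tested with the quasi-likelihood F test of edgeR (863 of 20119 genes passed, 4.29%). After glycerol, log2(value + 1) was tested with limma with a mean-variance trend (411 of 14330 passed, 2.87%), so a fold change is on that scale and understates the change of low genes. Genes were matched by identifier without version. The difference test divides the effect after glycerol minus that after BaCl2 by the root of the summed squared SEs, two-sided, against a Student distribution with Satterthwaite degrees of freedom (9.21 to 19.2), adjusted by Benjamini and Hochberg over 13960 genes. A gene passed at an adjusted p under 0.05.

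The comparison, the 50 gene lists (937 symbols, 878 tested) and the genes named were chosen with earlier results of these data known. Named were the 10 largest passing differences per direction among genes averaging 1 CPM or more after BaCl2 and above the median after glycerol, up to 4 members per list by smallest p, up to 8 genes per class called after both injuries, the 6 most alike genes by SE and 9 fixed genes, with predicted genes skipped. Other list members were named as examples. Promoters came from RefSeq (GRCm38.p6), the sequences shown being the 150 bases before the start, and 5' untranslated sequence was not printed. The simulated data held 198 changed genes among 13935. There the difference test recovered 56.7%, 65.2% and 95.4% at 1.5-, 2- and 4-fold, and 12.3% of its calls were false. The joint model recovered 43.3%, 63.6% and 95.4%, and 9.52% of its calls were false. Both false shares were higher than an adjusted p cutoff of 0.05 aims for. Whether these rates hold for the real libraries was not tested. In those libraries the count of passing genes ran from 173 to 1072 on leaving out single libraries. Alternatives covered the reference distribution, a joint model, the tool, scaling, filters, the pseudocount, the replicate block and leaving out libraries. With SMA libraries 1 and 2 after BaCl2 left out, the lone SMA library was assumed to vary like the WT libraries.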

Additional observations from a re-analysis of the deposited data

Results flagged for a closer look

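For 90 named genes the effect of the SMA genotype differed between the injuries by the difference test (adjusted p under 0.05). The number after each gene is its log2 effect after glycerol minus that after BaCl2, and the errors of the genes discussed earlier stand beside them there.

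The immune genes with a more positive effect after glycerol were the class II genes Ciita (2.30), H2-Aa (1.83), H2-Eb1 (1.62) and Cd74 (1.35), the interferon response genes Irf7 (1.40), Oas2 (1.25), Stat2 (0.85), Irf1 (0.70) and Irf9 (0.67) and the class I genes H2-T23 (1.36), H2-T22 (0.80), Tapbp (0.67) and B2m (0.65). Chemokines and leukocyte genes with the same sign were Cxcl9 (1.501), Ccl5 (1.47), Cd4 (1.30), Cxcl10 (1.10), Mmp9 (0.69), Fcgrt (0.54) and Gsdmd (0.41), while Arg1 (-2.41), Ccl6 (-1.61), F13a1 (-1.24), Acod1 (-1.09) and Il11 (-0.86) had the opposite sign. Vessel genes were more negative after glycerol, namely Nrarp (-1.86), Dll4 (-1.77), Plvap (-1.67), Gpihbp1 (-1.66), Sox18 (-1.60), Rgs5 (-1.60), Adgrf5 (-1.56), Cdh5 (-1.54), Tie1 (-1.49), Ptprb (-1.42), Pecam1 (-1.31), Mcam (-1.15) and Gata2 (-0.97).

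The matrix genes flagged here were more positive after glycerol, namely Col23a1 (0.89), Mfap2 (0.87), Ecm1 (0.74), Ccn1 (0.71), Timp2 (0.66), Col6a2 (0.66), Col6a1 (0.62), Mmp2 (0.61), Col18a1 (0.55), Mmp14 (0.52) and Pcolce (0.41). Signalling and stromal genes with the same sign were Agt (1.69), Astn2 (1.57), Rspo2 (1.46), Draxin (1.41), Ptn (1.40), Clec3b (1.33), Wnt5b (0.96), S100b (0.92), Des (0.79), Islr (0.78), Fstl1 (0.45) and Id3 (0.35), while Hic1 (-0.35), Irs2 (-0.31), Hlf (-0.69) and Wdr77 (-0.41) had the opposite sign. The replication and protein folding genes flagged here were more negative, namely Cdc6 (-0.92), Mcm3 (-0.66), Mcm2 (-0.60) and Mki67 (-0.50) and Sdf2l1 (-0.87), Hyou1 (-0.67), Creld2 (-0.64), Manf (-0.53) and Dnajc3 (-0.47). Lipid genes with a more positive effect were Car3 (2.45), Pltp (1.27), Lpl (0.71), Mylip (0.63), Angptl4 (0.60), Npc2 (0.52) and Egr2 (0.48), the last also listed as a Schwann cell gene. Those with a more negative effect were Fasn (-0.61), Acsl3 (-0.39) and Elovl5 (-0.33). Immediate early and lysosomal genes were more positive, namely Egr1 (0.65), Zfp36 (0.60) and Dusp1 (0.53) and Glb1 (0.43), Ctsk (0.38) and Lamp2 (0.32).

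Dixon's rule for 1 sample far from the others of its group was applied to 44 groups of 4 glycerol libraries, and chance flags about 1 in 20 groups. It marked WT library 2 for Ecm1, at 21082 normalized counts, and WT library 2 for Ptn, at 5826 normalized counts, each the highest of its group.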

How the results depend on the processing

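The 90 passing named genes kept their sign under every alternative run, and 115 of the 547 genes passed whichever library was left out. Since the 90 were chosen for passing in these same libraries, their kept sign is no independent support. Another 54 of the 129 named genes that did not pass did so under some alternative. With a normal reference 1480 genes passed (778 more positive, 702 more negative), with one limma model over 14 libraries 53 (32 and 21), with DESeq2 after BaCl2 and a normal reference 1011 (512 and 499; 1758 genes after BaCl2 alone), and with no low-count filter 912 (442 and 470; 1867 after BaCl2 alone). The cause of these shifts was not tested, but the joint model shares 1 spread and the normal reference ignores its uncertainty by construction. limma after BaCl2 (590), centring (546), RLE size factors (544), a minimum of 1 CPM (560), a pseudocount of 8 (542) and a glycerol mean of at least 50 (584) moved the count by less than 1.5 times. Leaving out each library in turn gave 173 to 1072 genes (93 to 584 more positive, 80 to 488 more negative), with 41 to 1577 for the BaCl2 effect alone and 0 to 1645 for the glycerol effect alone. Without SMA libraries 1 and 2 after BaCl2 together, 74 passed (52 and 22; 108 for the BaCl2 effect), from 1 SMA library. The range of passing endothelial genes was 5 to 19, of interferon genes 4 to 25, of MHC class II genes 4 to 8 and of cell cycle genes 3 to 18.

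Whether replicate numbers pair the libraries was not settled. The correlation of same-numbered SMA and WT libraries was -0.03 to 0.02 after BaCl2 and -0.09 to 0.14 after glycerol. For different numbers it was -0.04 to 0.03 and -0.17 to 0.11. With 3 or 4 libraries per group, these values cannot exclude a pairing. With a replicate block, 882 genes passed the difference (470 and 412), 1144 after BaCl2 and 257 after glycerol. Depth limits genes far below 1 CPM after BaCl2, such as Adipoq and Car3, and cannot be judged after glycerol.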

Other observations

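Gene groups not described above held a few further genes whose SMA effect differed between the injuries. Immediate early genes, which also rise when tissue is dissociated, had 21 of 23 positive differences, and 3 passed, with a median effect of -0.07 after BaCl2 and 0.15 after glycerol, and 6 passed without SMA library 3 after BaCl2. Dusp1, a phosphatase that ends MAP kinase signals, differed by 0.53 (SE 0.10, difference test, adjusted p = 0.012) and Zfp36, which destabilises cytokine transcripts, by 0.60 (SE 0.13, adjusted p = 0.0166), and both passed whichever library was left out. Egr1, a growth factor induced transcription factor, differed by 0.65 (SE 0.13, adjusted p = 0.0161; 0.0531 without WT library 3 after BaCl2). Lysosomal genes had 26 of 28 positive differences, and 4 passed, with a median effect of 0.07 after BaCl2 and 0.30 after glycerol. Their summed level after glycerol was 782475 to 1269840 normalized counts in SMA and 766095 to 853056 in WT libraries, lowest among SMA in library 3. The count of lysosomal genes was 0 on leaving out SMA 2, WT 1 or WT 3 of the glycerol libraries and 10 without SMA library 3 after glycerol. With all libraries, 8 of the 28 had an unadjusted p under 0.05 in the difference test, against 3004 of all 13960 genes.

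Il11, a cytokine of the interleukin-6 family that drives matrix production in fibroblasts, was higher in SMA after BaCl2 (0.66) and stood at -0.20 after glycerol, with a difference of -0.86 (SE 0.19, adjusted p = 0.022), and it passed without 10 of the 14 libraries. Hlf, an output factor of the circadian clock, was the 1 of 17 clock genes that passed, with a difference of -0.69 (SE 0.18, adjusted p = 0.0368; 5 of 14). S100b, a calcium-binding protein of Schwann cells also made by fat cells, differed by 0.92 (SE 0.21, adjusted p = 0.0239; lost after leaving out glycerol libraries SMA 2, WT 1 or WT 3, at most 0.0598).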
